A study of Mus musculus with 11 samples.

Results

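The sarcomeric myosin heavy chain clusters are 2 groups of neighbouring mouse genes that encode the motor protein of the thick filament of striated muscle. They were taken as the 8 genes Myh3, Myh2, Myh1, Myh4, Myh8 and Myh13 on chromosome 11 and Myh6 and Myh7 on chromosome 14, of 20368 gene symbols in the expression tables. To them were added all 99 MyoD, MyoG and H3K4me1 peaks within the clusters and 50 kb on each side, of 230671 peaks in 5 lists. All 8 genes were found in both expression tables, each as 1 coding sequence.

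Each sarcomeric heavy chain gene serves a stage or a fibre type. Myh3 encodes the embryonic chain and Myh8 the perinatal chain, Myh2, Myh1 and Myh4 the fast chains of adult type IIa, IIx and IIb fibres, and Myh13 the chain of extraocular and laryngeal muscle. Myh7 encodes the slow chain of type I fibres and of the heart, where it is called beta, and Myh6 the alpha chain of the heart. MyoD and myogenin (MyoG) are the muscle transcription factors that open and drive the myogenic programme by binding DNA at E-boxes, and H3K4me1 is a histone mark of enhancers.

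The study used C2C12 cells, a mouse myoblast line (strain C3H in the labels) that fuses into myotubes when serum is withdrawn, and asked what RNA made at enhancers does in that programme. PolyA RNA was sequenced at 4 h in 2% horse serum from DRRi cells, in which RNA interference was aimed at the DRR enhancer RNA, and from their control GFPi, in which it was aimed at GFP. A second pair was pHAN_DRR1.2 cells, which overexpressed the DRR RNA, and their control pHAN_GFP, which overexpressed GFP; neither the form of the interfering RNA nor the vector's promoter is given in the labels. The DRR is the distal regulatory region upstream of the MyoD gene Myod1. Chromatin immunoprecipitation gave peaks of MyoD, MyoG and H3K4me1 in myotubes (MT) after 48 h of differentiation, and of MyoD and H3K4me1 in proliferating myoblasts (MB) in 10% fetal bovine serum, all in unmodified C2C12 cells as far as the labels say. Each of the 11 groups of the series held 1 sample, so there are no replicates and no difference below has a replicate check. The RNA libraries made from myotubes and from satellite cells were not analysed here. The peaks were therefore not taken at the same time as the RNA, and the effect of either manipulation on binding was not analysed here.

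The genes stand close together. In the coordinates of the files (mm9 build, counted from 1), the 6 chromosome 11 genes lay head to tail on the plus strand over 293.2 kb, Myh3 at chr11:66891802-66915793, Myh2 at chr11:66984529-67011019, Myh1 at chr11:67013616-67038077, Myh4 at chr11:67051531-67073948, Myh8 at chr11:67090626-67122135 and Myh13 at chr11:67140605-67185004. Myh3 was set apart from Myh2 by 68.7 kb, while the other gaps of this cluster were 2.6 to 18.5 kb. Myh7 at chr14:55587624-55613386 and Myh6 at chr14:55560758-55585444 lay on the minus strand, 2.2 kb apart, with Myh7 upstream.

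The start regions of 4 chromosome 11 genes are shown because they differed in the peaks next to them: MyoD and MyoG at Myh3 and Myh1, MyoG alone at Myh4, and neither at Myh2. Each sequence runs from 250 bases before to 50 bases after the RefSeq start (build GRCm38.p6), 5′ to 3′ on the gene's strand. Capitals mark E-boxes (CANNTG, which reads the same on both strands) and the TATA-box letters TATAAA on the gene's strand.
Myh3 (chr11:67078050-67078349, plus strand): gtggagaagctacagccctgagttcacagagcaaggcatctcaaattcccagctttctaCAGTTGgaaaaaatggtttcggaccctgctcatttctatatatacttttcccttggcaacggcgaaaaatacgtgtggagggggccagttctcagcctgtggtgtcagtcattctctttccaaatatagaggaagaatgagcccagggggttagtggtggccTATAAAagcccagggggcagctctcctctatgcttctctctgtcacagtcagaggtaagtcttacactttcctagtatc
Myh1 (chr11:67199852-67200151, plus strand): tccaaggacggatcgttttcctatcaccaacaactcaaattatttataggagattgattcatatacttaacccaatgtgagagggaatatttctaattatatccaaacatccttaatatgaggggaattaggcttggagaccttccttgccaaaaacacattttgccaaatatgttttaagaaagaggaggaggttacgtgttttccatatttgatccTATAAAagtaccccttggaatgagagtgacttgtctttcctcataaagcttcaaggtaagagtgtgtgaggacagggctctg
Myh4 (chr11:67237562-67237861, plus strand): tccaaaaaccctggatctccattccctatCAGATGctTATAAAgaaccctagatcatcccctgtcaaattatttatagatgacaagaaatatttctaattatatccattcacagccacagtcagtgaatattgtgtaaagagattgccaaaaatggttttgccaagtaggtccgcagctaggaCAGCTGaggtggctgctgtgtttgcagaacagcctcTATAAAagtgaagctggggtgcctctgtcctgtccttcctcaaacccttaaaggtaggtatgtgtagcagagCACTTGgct
Myh2 (chr11:67170777-67171076, plus strand): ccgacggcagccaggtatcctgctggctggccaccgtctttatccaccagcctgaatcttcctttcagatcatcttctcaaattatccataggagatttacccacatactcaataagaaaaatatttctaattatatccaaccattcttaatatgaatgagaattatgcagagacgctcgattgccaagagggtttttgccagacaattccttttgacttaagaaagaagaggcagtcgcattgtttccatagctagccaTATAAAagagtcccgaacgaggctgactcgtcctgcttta

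The Myh3 window held 1 E-box, CAGTTG at -191 to -186, and TATAAA at -29 to -24. The Myh1 window held no E-box and TATAAA at -32 to -27. The Myh4 window held 3 E-boxes, among them CAGCTG at -67 to -62, and TATAAA at -213 to -208 and at -31 to -26. The Myh2 window held no E-box, and its TATAAA fell at 11 to 16, downstream of the RefSeq start. Among 32851 RefSeq promoter windows of the same length 72.3% held an E-box, 16.3% held CAGCTG and 8.32% held TATAAA on the gene's strand. So an E-box is a common sequence and its absence a property of these windows only.

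Myh2, Myh1, Myh4 and Myh8 shared stretches of this sequence. Myh1 and Myh2 shared a run of 21 bases, aatatttctaattatatccaa, and Myh1 and Myh4 a run of 20 bases within it, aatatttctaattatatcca. Myh1 and Myh8 shared 22 bases, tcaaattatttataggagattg. Between Myh3 and any other member the longest shared run was 11 bases, between Myh13 and any other it was 9 bases, and between Myh6 and Myh7 it was 10 bases. The CArG box, the binding sequence of serum response factor, was found in the Myh4 and Myh13 windows and in 1.63% of all windows. The MEF2 box was searched in a strict form only, which matched in no member and in 0.557% of all windows. Looser forms of it were not searched, so its absence holds for the strict form only. The letters ttatttatag, present in the Myh1, Myh4 and Myh8 windows, were not counted by that form. All motifs given here are matches of letters, not measured sites.

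Heavy chain RNA was scarce at 4 h. FPKM (fragments per kilobase of transcript, scaled to the mapped fragments of a library) summed over the 8 genes was 0.251 in DRRi cells, against 0.692 in GFPi cells, and 8.33 in pHAN_DRR1.2 cells, against 3.03 in pHAN_GFP cells. The tables were normalized apart, so levels are compared within a table only. Myh3 was the most abundant member in GFPi, pHAN_DRR1.2 and pHAN_GFP cells, with 59.3%, 57.5% and 33.4% of the summed level. In DRRi cells it held 22.2%, behind Myh13 with 39.8% and Myh1 with 22.4%. These orders have no replicate spread, and among members under 0.1 FPKM neighbours in the order cannot be ranked.

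**Figure D1:**
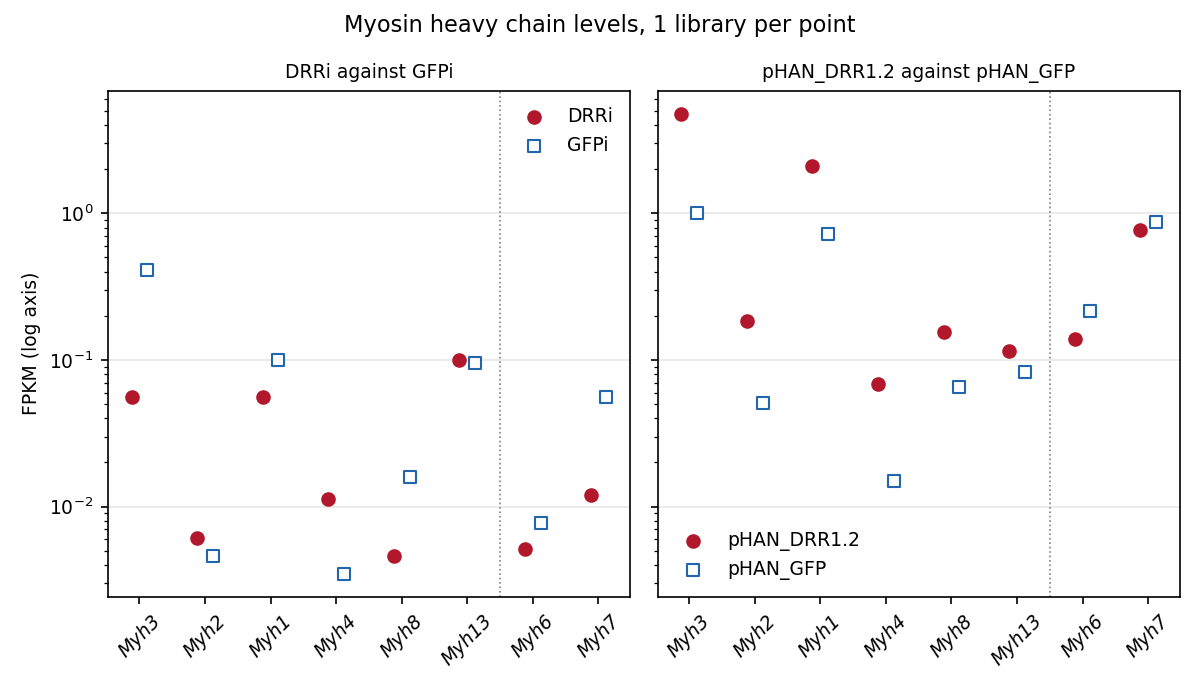
FPKM of each heavy chain gene on a log axis, with 1 point per library: DRRi (filled) beside GFPi (open) on the left, pHAN_DRR1.2 (filled) beside pHAN_GFP (open) on the right, and a dotted line between the chromosome 11 and chromosome 14 genes. Myh3 is the highest point on the right, at 4.79 in pHAN_DRR1.2 and 1.01 in pHAN_GFP, and most points on the left lie under 0.1.

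Myh3, the embryonic chain, went in opposite directions in the 2 experiments. It had 0.0558 FPKM in DRRi cells, against 0.410 FPKM in GFPi cells, a level 7.36-fold lower (log2 ratio -2.88, SE 0.73 as implied by the authors' p-value). The authors' deposited table gives it p = 8.33e-05 and q = 0.0161. It had 4.79 FPKM in pHAN_DRR1.2 cells, against 1.01 FPKM in pHAN_GFP cells, 4.73-fold higher (95% interval from the authors' p-value 3.26 to 6.86). The authors' deposited table gives that difference p = 2.22e-16 and q = 6.01e-13. The gene was thus higher in the overexpressing cells and lower under RNA interference, with levels near or under 1 FPKM in both controls. The DRR RNA itself was not analysed here. The read depth of the libraries is unknown, and in bulk RNA fewer expressing cells and less RNA per cell cannot be told apart.

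A change was counted where log2(FPKM + 1) moved by 1 or more in a gene that averaged at least 1 FPKM; the pseudocount understates changes of scarce genes. By that rule no member could be counted in DRRi cells, since none reached a mean of 1 FPKM; 0.804% of 10577 genes were lower and 0.898% higher. In pHAN_DRR1.2 cells 2 of 8 members reached that mean, and Myh3 rose by 1.52 on this scale, where 0.318% of 10699 genes were higher and 0.0841% lower. The other was Myh1, at 0.86. It averaged 1 FPKM only through pHAN_DRR1.2 cells (2.11 FPKM, against 0.718 FPKM in pHAN_GFP cells), so its place was bound to come with a higher value there. At an authors' q-value under 0.05, 1 member was lower in DRRi cells and 2 were higher in pHAN_DRR1.2 cells. Of the coding sequences the authors tested, 0.532% of 13349 were lower and 0.637% higher in DRRi cells by that rule, and 0.547% of 13529 were lower and 0.88% higher in pHAN_DRR1.2 cells. The authors tested 1 and 3 of the 8 members, as against 54.9% and 55.6% of all 24333 coding sequences. The others carry a q-value of 1.

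The adult fast chains were led by Myh1. It had 2.11 FPKM in pHAN_DRR1.2 cells, against 0.718 FPKM in pHAN_GFP cells, 2.94-fold higher (95% interval 1.92 to 4.48), and the authors' deposited table gives p = 6.11e-07 and q = 0.00018. In DRRi cells it had 0.0562 FPKM, against 0.0993 FPKM in GFPi cells, a difference within its error (95% interval of the ratio 0.191 to 1.68). Myh1 was thus higher with the overexpressed RNA, and its lower value under RNA interference was not resolved.

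Myh2, the IIa chain, had 0.183 FPKM in pHAN_DRR1.2 cells, against 0.0507 FPKM in pHAN_GFP cells, a ratio of 3.61 (95% interval 1.58 to 8.25). Myh4, the IIb chain, had 0.0686 FPKM in pHAN_DRR1.2 cells, against 0.0150 FPKM in pHAN_GFP cells, a ratio of 4.57 (95% interval 1.29 to 16.3). Both intervals lie above 1, but the authors did not test either gene in this table. With 1 library per group such intervals hold no spread between cultures. In DRRi cells Myh2 had 0.00616 FPKM, against 0.00461 FPKM in GFPi cells, and Myh4 had 0.0113 FPKM, against 0.00348 FPKM. At such levels neither ratio is informative, and the interval of the Myh4 ratio ran over 0.218 to 48.5.

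Myh8, the perinatal chain, had 0.156 FPKM in pHAN_DRR1.2 cells, against 0.0655 FPKM in pHAN_GFP cells, a ratio of 2.39 (95% interval 1.09 to 5.25). In DRRi cells it had 0.00462 FPKM, against 0.0160 FPKM in GFPi cells, with a 95% interval of the ratio of 0.0282 to 2.97. Myh13, the extraocular chain, had 0.116 FPKM in pHAN_DRR1.2 cells, against 0.0829 FPKM in pHAN_GFP cells, a ratio of 1.39 (95% interval 0.632 to 3.08). In DRRi cells Myh13 had 0.0998 FPKM, against 0.0950 FPKM in GFPi cells. Of the chromosome 11 genes Myh13 had the ratio nearest to 1 in both tables. The authors did not test Myh8 or Myh13 in either comparison.

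The cardiac pair had ratios below 1 in pHAN_DRR1.2 cells, with intervals that span 1. Myh7 had 0.766 FPKM in pHAN_DRR1.2 cells, against 0.874 FPKM in pHAN_GFP cells, a ratio of 0.876 (95% interval 0.551 to 1.39), and the authors' deposited table gives p = 0.575. Myh6 had 0.139 FPKM in pHAN_DRR1.2 cells, against 0.215 FPKM in pHAN_GFP cells, a ratio of 0.643 (95% interval 0.323 to 1.28). The authors did not test Myh6 in either comparison. The interval of Myh7 ended below those of Myh3, Myh1 and Myh2 but overlapped those of Myh4, Myh8 and Myh13; the difference between the clusters was not tested. In DRRi cells Myh7 had 0.0120 FPKM, against 0.0558 FPKM in GFPi cells, 4.66-fold lower, with p = 0.0627 in the authors' deposited table, where the gene is marked as not tested. Myh6 had 0.00515 FPKM in DRRi cells, against 0.00777 FPKM in GFPi cells.

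By direction alone, all 6 chromosome 11 genes were higher in pHAN_DRR1.2 cells and both chromosome 14 genes lower, where 53.0% of 14268 symbols above 0 in both libraries were higher and 47.0% lower. In DRRi cells 5 members were lower and 3 (Myh2, Myh4 and Myh13) higher, the 3 turning to lower on log2(FPKM + 1) once the median change of all genes is set to 0, where 48.0% of 14002 symbols were lower and 52.0% higher. At a mean under 1 FPKM large ratios were common: 18.6% of 3425 symbols were lower by 2-fold or more in DRRi cells and 15.9% higher, and in pHAN_DRR1.2 cells 15.6% of 3569 were lower and 12.4% higher by as much. The genes are near-identical in parts of their coding sequence, and whether reads were shared among them, or counted by strand, is not given in the sources used here. Their values may thus not be independent, and the level of a scarce member beside an abundant one is uncertain.

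**Figure D2:**
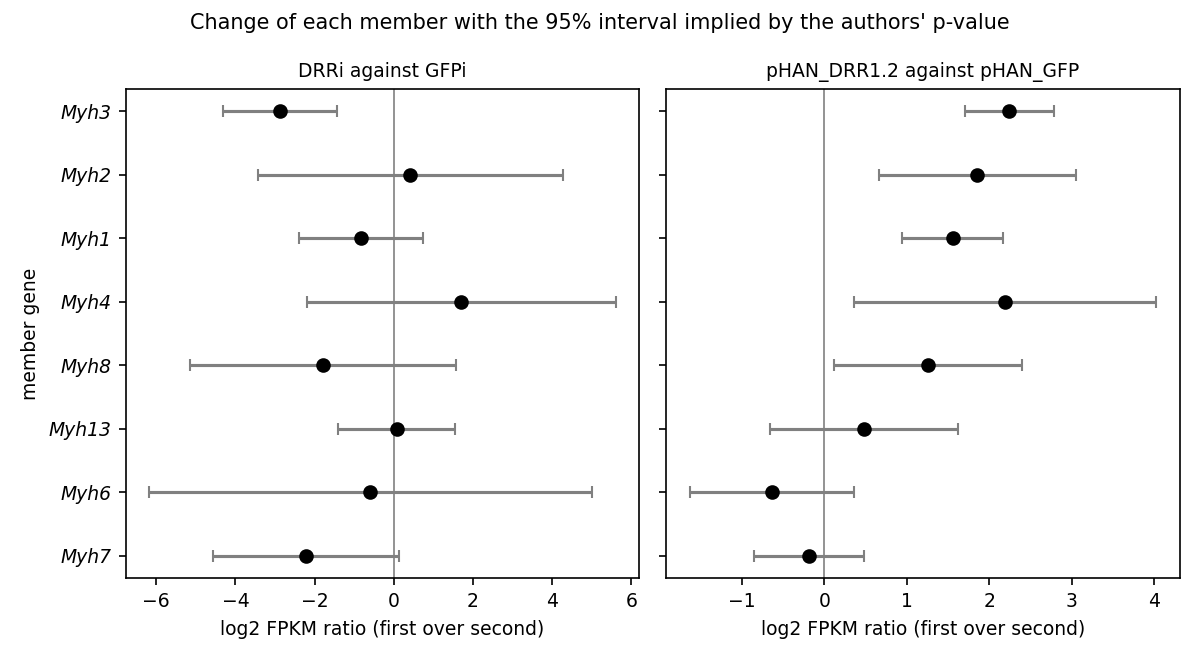
Log2 FPKM ratio of each heavy chain gene for DRRi against GFPi (left) and pHAN_DRR1.2 against pHAN_GFP (right), with bars for the 95% interval implied by the authors' p-value; the line marks no difference. Myh3 lies at -2.88 on the left and 2.24 on the right, and the interval of Myh7 on the right, around -0.19, spans no difference.

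Genes that build or bind the thick filament were counted as a list of 24 partners. In pHAN_DRR1.2 cells 3 of the 13 that averaged at least 1 FPKM were higher by 2-fold or more, where 0.318% of all genes were. None was lower, and the 13 had a median log2 change of 0.57 where all genes had 0.02. The 3 higher genes were the fast light chains Mylpf (89.2 FPKM, against 20.1 FPKM in pHAN_GFP cells) and Myl1 (32.9 FPKM, against 8.97 FPKM), and the myosin-binding protein Mybph (6.38 FPKM, against 1.51 FPKM). In DRRi cells 4 of 10 were lower, where 0.804% of all genes were, and none was higher, with a median of -0.76. They were Mylpf (1.50 FPKM, against 7.34 FPKM in GFPi cells), Myl1 (0.556 FPKM, against 2.33 FPKM), the myosin light chain kinase Mylk2 (2.88 FPKM, against 8.86 FPKM) and Trim54, a ubiquitin ligase of the sarcomere (0.707 FPKM, against 5.61 FPKM). Myl1 and Trim54 averaged 1 FPKM only through their level in GFPi cells, so their place in that count was bound to come with a difference, and among genes averaging at least 5 FPKM only 1 partner was lower. The median carries the same limit. It also includes Myom2, which passed only through GFPi cells (0.726 FPKM in DRRi cells, against 1.95 FPKM). Myl4 passed only through DRRi cells (1.97 FPKM, against 0.965 FPKM in GFPi cells). Mylpf and Myl1 passed 2-fold in both experiments. Mybpc1, a myosin-binding protein whose mean lay below the filter, was lower in pHAN_DRR1.2 cells at 0.243 FPKM, against 1.37 FPKM in pHAN_GFP cells, and was named after its value was seen.

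The myogenin gene Myog moved in the same directions as Myh3. It had 2.61 FPKM in DRRi cells, against 10.2 FPKM in GFPi cells (log2 change -1.64; q = 0.00848 in the authors' deposited table). In pHAN_DRR1.2 cells it had 65.8 FPKM, against 26.3 FPKM in pHAN_GFP cells (log2 change 1.29; q = 1.38e-08 in the authors' deposited table). Myod1 had 33.1 FPKM in DRRi cells, against 37.7 FPKM in GFPi cells, and 65.6 FPKM in pHAN_DRR1.2 cells, against 68.9 FPKM in pHAN_GFP cells. Of 16 listed regulators of heavy chain genes, 12 averaged at least 1 FPKM in each table. By the 2-fold rule only Myog was lower in DRRi cells, where 0.804% of all genes were. Myog and Vgll2 were higher in pHAN_DRR1.2 cells, where 0.318% of all genes were.

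The pair of changes of Myh3 was set beside that of 10398 genes that averaged at least 1 FPKM in both tables. The 5 nearest, by Euclidean distance of the 2 log2 changes, were Vgll2 (distance 0.38), Tppp3 (0.46), Dync1i1 (0.48), Lrrn1 (0.49) and Mcpt8 (0.50). That order rests on the pseudocount, which shrinks the DRRi change of Myh3 to -0.42 although its log2 FPKM ratio was -2.88. On log2 FPKM ratios, an alternative chosen after seeing the data, none of these 5 was among the 5 nearest, which were Nptx1 (distance 0.53), Mylpf (0.59), Myl1 (0.89), Tnni1 (1.23) and Tnnt3 (1.23). Myl1, Tnni1 and Tnnt3 had 0.556, 0.887 and 0.287 FPKM in DRRi cells, against 2.33, 3.21 and 1.73 FPKM in GFPi cells. They averaged 1 FPKM only through GFPi cells, so their place was bound to come with a lower DRRi value. The same holds for Dync1i1 of the first 5, with 0.767 FPKM in DRRi cells, against 1.95 FPKM in GFPi cells. Myh3 itself did not reach that mean in DRRi and GFPi cells. Vgll2, a muscle cofactor of TEAD factors, then had rank 59. Mylpf and Myl1 encode fast light chains, Tnni1 and Tnnt3 troponins of the thin filament, and Nptx1 a neuronal pentraxin. Nptx1 had 5.52 FPKM in DRRi cells, against 34.3 FPKM in GFPi cells, and 10.7 FPKM in pHAN_DRR1.2 cells, against 3.13 FPKM in pHAN_GFP cells. With 2 changes per gene, either likeness is a description of 4 libraries.

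Heavy chain genes outside the clusters included abundant ones. Myh9, a nonmuscle chain, had 283 FPKM in DRRi cells, against 277 FPKM in GFPi cells, and 439 FPKM in pHAN_DRR1.2 cells, against 418 FPKM in pHAN_GFP cells. Myh10, another nonmuscle chain, had 40.1 FPKM in DRRi cells, against 34.8 FPKM in GFPi cells, and 32.6 FPKM in pHAN_DRR1.2 cells, against 33.7 FPKM in pHAN_GFP cells. None of the other heavy chain genes passed the 2-fold rule.

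The libraries carried the myoblast markers they should: all 6 were detected, with Des highest. Among markers of other cell types, 1 of 4 fibroblast markers passed the 2-fold rule in each experiment, Col1a1 in DRRi cells and Dcn in pHAN_DRR1.2 cells. Both were higher, as were 0.898% of all genes in DRRi cells and 0.318% in pHAN_DRR1.2 cells. Col1a1 had 14.2 FPKM in DRRi cells, against 4.32 FPKM in GFPi cells, and Dcn had 7.78 FPKM in pHAN_DRR1.2 cells, against 3.02 FPKM in pHAN_GFP cells. Others of the list went the other way: Pdgfra had 0.774 FPKM in DRRi cells, against 0.920 FPKM in GFPi cells, and 0.978 FPKM in pHAN_DRR1.2 cells, against 1.65 FPKM in pHAN_GFP cells. Dcn had 0.102 FPKM in DRRi cells, against 0.179 FPKM in GFPi cells. The summed fibroblast level was 15.0 FPKM in DRRi cells, against 5.41 FPKM in GFPi cells, mostly Col1a1, and 31.2 FPKM in pHAN_DRR1.2 cells, against 22.1 FPKM in pHAN_GFP cells; Lum was at 0 in DRRi and GFPi cells. Summed cardiac markers, 5 genes, had 6.21 FPKM in DRRi cells, against 5.63 FPKM in GFPi cells, and 10.9 FPKM in pHAN_DRR1.2 cells, against 8.52 FPKM in pHAN_GFP cells. Most of each sum was Gata4, and the 5 genes did not share a direction. In DRRi cells 2 were higher and 3 lower, and in pHAN_DRR1.2 cells 3 were higher and 2 lower. Tnni3 was lower in both, at 1.14 FPKM in pHAN_DRR1.2 cells, against 2.22 FPKM in pHAN_GFP cells. Of the 3 neuron markers Tubb3 had 35.5 FPKM in DRRi cells, against 24.5 FPKM in GFPi cells, and 91.0 FPKM in pHAN_DRR1.2 cells, against 51.0 FPKM in pHAN_GFP cells. Its q-value in the second comparison was 0.00065 in the authors' deposited table. Snap25 and Rbfox3 were at 0 in all 4 libraries. The part of these levels in the heavy chain values was not tested.

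On chromosome 11 the peak lists of myotubes and myoblasts differed in number. The window of 393.2 kb held 20 MyoD peaks in myotubes, against 2 in myoblasts, and 20 H3K4me1 domains covering 70.8 kb in myotubes, against 5 covering 7.8 kb in myoblasts. It held 15 MyoG peaks in myotubes. MyoD peaks numbered 5.09 per 100 kb in myotubes, where chromosome 11 as a whole had 2.55, and 0.509 per 100 kb in myoblasts, where it had 1.05. H3K4me1 domains numbered 5.09 per 100 kb in myotubes, where the chromosome had 4.18, and 1.27 per 100 kb in myoblasts, where it had 3.95. The window was thus denser than its chromosome in myotubes and sparser in myoblasts. Outside the span of the 6 genes lay 3 MyoD and 4 MyoG peaks of myotubes, 6 domains of myotubes and 4 of myoblasts. The flanks hold other genes, so these densities are not those of the heavy chain genes alone. Each list is 1 experiment, and the list sizes differ by stage.

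**Figure D3:**
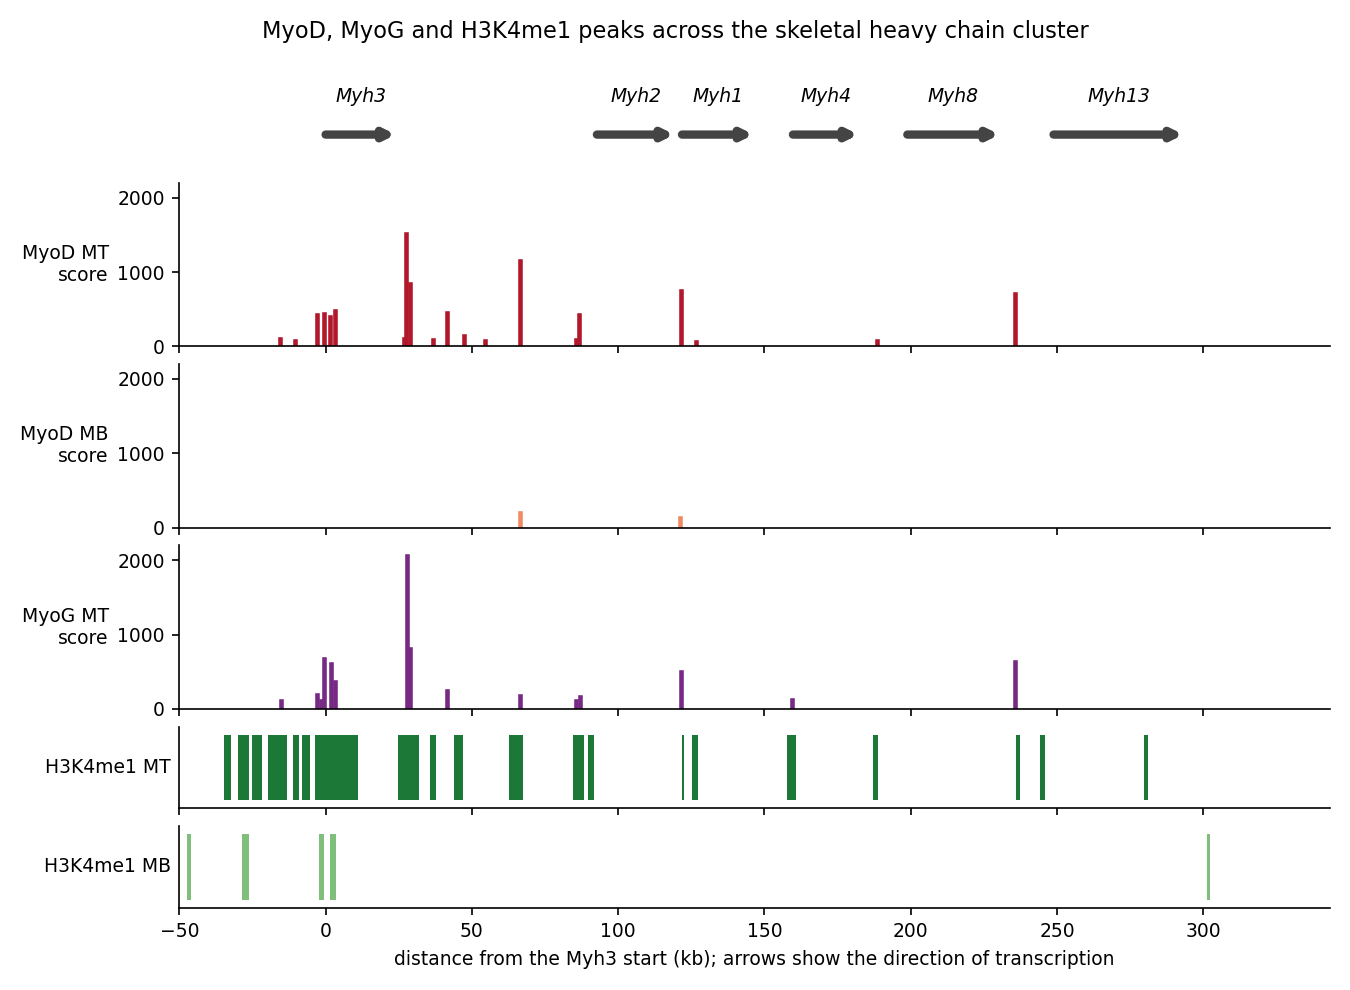
Peaks across the skeletal heavy chain cluster by distance from the Myh3 start in kb, with the genes as arrows. Bars give the deposited score of each MyoD peak in myotubes (MT) and myoblasts (MB) and each MyoG peak in myotubes, and blocks give the H3K4me1 domains. The 68.7 kb between Myh3 and Myh2 hold 10 MyoD peaks in myotubes and 1 in myoblasts, and the highest MyoG bar, 2055.48, stands there.

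Peaks that overlapped by 1 bp or more were taken as shared. Of the 20 MyoD peaks in myotubes 18 had no counterpart in myoblasts, 90.0% (95% Clopper-Pearson interval 68.3 to 98.8), where the share over all 39700 peaks of that list was 65.9%. Of the 20 H3K4me1 domains in myotubes 18 had none in myoblasts, 90.0% (68.3 to 98.8), where the share over all 70587 domains was 31.7%. Only 3 of the 20 MyoD peaks lay in a domain of myoblasts, 15.0% (3.21 to 37.9), where 61.6% of the list did, while 17 lay in a domain of myotubes, 85.0% (62.1 to 96.8), as did 85.0% of the list. The intervals cover counting error only, and neighbouring peaks are not independent.

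The 18 MyoD peaks seen in myotubes alone were sorted by the mark at each. At 12 of them, 66.7%, the domain was listed in myotubes only, where 35.9% of 26173 such peaks over the genome were of this kind. At 3, 16.7%, it was listed at both stages, where 46.0% were. The remaining 3 lay in no domain, as did 15.7% over the genome. MyoG overlapped 13 of the 20 MyoD peaks, 65.0% (40.8 to 84.6), near the 66.9% of the list, and 13 of the 15 MyoG peaks overlapped MyoD, where 77.6% of the MyoG list did. In myotubes 13 of the 15 MyoG peaks lay in a domain, where 84.5% of the list did. Counted by domain, 11 of the 20 in myotubes held a MyoD peak, where 35.5% of the list did, and 7 held a MyoG peak, where 31.0% did. Of the 5 domains of myoblasts 3 overlapped one of myotubes, where 71.9% of that list did. Neither of the 2 MyoD peaks of myoblasts lay in a domain of myoblasts, where 86.7% of the list did.

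Myh3 had the most MyoD and MyoG peaks near its start. A MyoD peak of myotubes at chr11:66890716-66892064 covered its start, from -1086 to 262 bp, with a score of 433.27 (75.0th percentile of the list). Others lay at chr11:66888305-66889152 (score 427.58), chr11:66893017-66893874 (395.51) and chr11:66894378-66895462 (470.95), and none had a myoblast counterpart. MyoG peaks stood at chr11:66888462-66889008 (184.83), chr11:66889987-66890661 (108.45), chr11:66890813-66891576 (675.38), chr11:66893158-66893840 (598.45) and chr11:66894503-66895396 (363.18). The peak scoring 675.38, among the 3 highest MyoG scores of the cluster, ended 226 bp before the start.

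The H3K4me1 domain over the 5′ part of Myh3, chr11:66888201-66903000, was the longest of the cluster at 14.8 kb, longer than 98.4% of the myotube list. It held 516 ChIP reads and 192 control reads, a deposited fold of 2.64. In myoblasts the mark was there in pieces: chr11:66889401-66891200 (fold 2.31) upstream of the start and chr11:66893401-66895200 (fold 1.53) inside the gene. Myh3 was the only member with a myoblast domain within 1 kb of its start. The longest myoblast domain of the window, chr11:66863401-66865600 with 2.2 kb and fold 1.40, lay 27.3 kb upstream of Myh3.

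The gap between Myh3 and Myh2 held the highest MyoD and MyoG scores of the chromosome 11 cluster. In myotubes it had 10 MyoD peaks, 6 MyoG peaks and 6 H3K4me1 domains, against 1 MyoD peak and no domain in myoblasts. The MyoD peak at chr11:66918922-66919911, centred 27.6 kb downstream of the Myh3 start, scored 1518.15 (94.0th percentile). The MyoG peak within it, chr11:66919115-66919831, scored 2055.48 (99.4th percentile), and the domain around both, chr11:66916401-66923800, held 330 ChIP reads and 71 control reads (fold 4.57). Beside it stood MyoD peaks at chr11:66918116-66918897 (103.64) and chr11:66920269-66921118 (844.4). A MyoG peak at chr11:66920300-66920848 (803.68) overlapped the second of these.

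Farther downstream a MyoD peak was listed at both stages, 26.2 kb before the Myh2 start. It scored 1144.98 in myotubes (chr11:66957901-66958756; 90.9th percentile), and 196.38 in myoblasts (chr11:66957940-66958635; 56.5th percentile). Scores of different lists are not on one scale. A MyoG peak overlapped it, and an H3K4me1 domain was listed there in myotubes but not in myoblasts.

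Myh1 had the other MyoD peak of myoblasts. Upstream of its start MyoD was listed at chr11:67012706-67013603 in myotubes (740.36), ending 13 bp before the start, and at chr11:67012761-67013402 in myoblasts (124.3). MyoG was listed at chr11:67012842-67013450 (503.68). A weak MyoD peak lay in the gene at chr11:67018142-67018713 (63.18, percentile 3.22). The printed Myh1 window held no E-box, and these peaks reached up to 910 bp upstream, beyond the letters shown.

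The other genes of the row had few peaks near their starts. At Myh4 a MyoG peak, chr11:67051076-67051484 (124.29), ended 47 bp before the deposited start with no MyoD peak at it, in an H3K4me1 domain of myotubes. The deposited Myh4 locus had 22418 bp, against 22636 bp in RefSeq, and its start is not the RefSeq start of the printed window. The distance of 47 bp thus does not apply to that window. The deposited and RefSeq starts of Myh3, Myh2, Myh8 and Myh13 differ by one offset between the builds. By that offset the RefSeq start of Myh4 lies upstream of the deposited one, inside this MyoG peak. The builds were not aligned base by base. Myh2, Myh8 and Myh13 had no MyoD or MyoG peak within 5 kb of their starts. Beyond that limit, MyoD peaks of myotubes lay 7.3 and 6.0 kb before the Myh2 start. They were chr11:66976973-66977578 (93.81) and chr11:66978132-66978861 (424.26), each overlapping a MyoG peak and a myotube domain. Another myotube domain ended 929 bp before that start. A MyoD peak at chr11:67127090-67127843 (702.02), 13.1 kb before the Myh13 start, overlapped a MyoG peak and a myotube domain.

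The chromosome 14 window was denser than its chromosome in myotubes and in myoblasts. Its 152.6 kb had 8 MyoD peaks in myotubes, against 2 in myoblasts, and 11 H3K4me1 domains covering 35.8 kb in myotubes, against 8 covering 13.0 kb in myoblasts. It had 8 MyoG peaks. Myh6 and Myh7 span 52.6 kb of that window. Outside this span lay 7 MyoD and 7 MyoG peaks of myotubes, 8 domains of myotubes and 7 of myoblasts. The densities are thus mostly those of the flanks, which hold other genes. MyoD peaks numbered 5.24 per 100 kb in myotubes and 1.31 in myoblasts, where chromosome 14 had 1.17 and 0.587. H3K4me1 domains in myoblasts numbered 5.24 per 100 kb, where the chromosome had 2.17. Of the MyoD peaks 6 of 8 had no counterpart in myoblasts, 75.0% (34.9 to 96.8), where 65.9% of the list had none. Of the 11 domains in myotubes 5 had none, 45.5% (16.7 to 76.6), where 31.7% of the list had none. Both intervals hold the share of the list, and the difference from the chromosome 11 cluster was not tested.

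**Figure D4:**
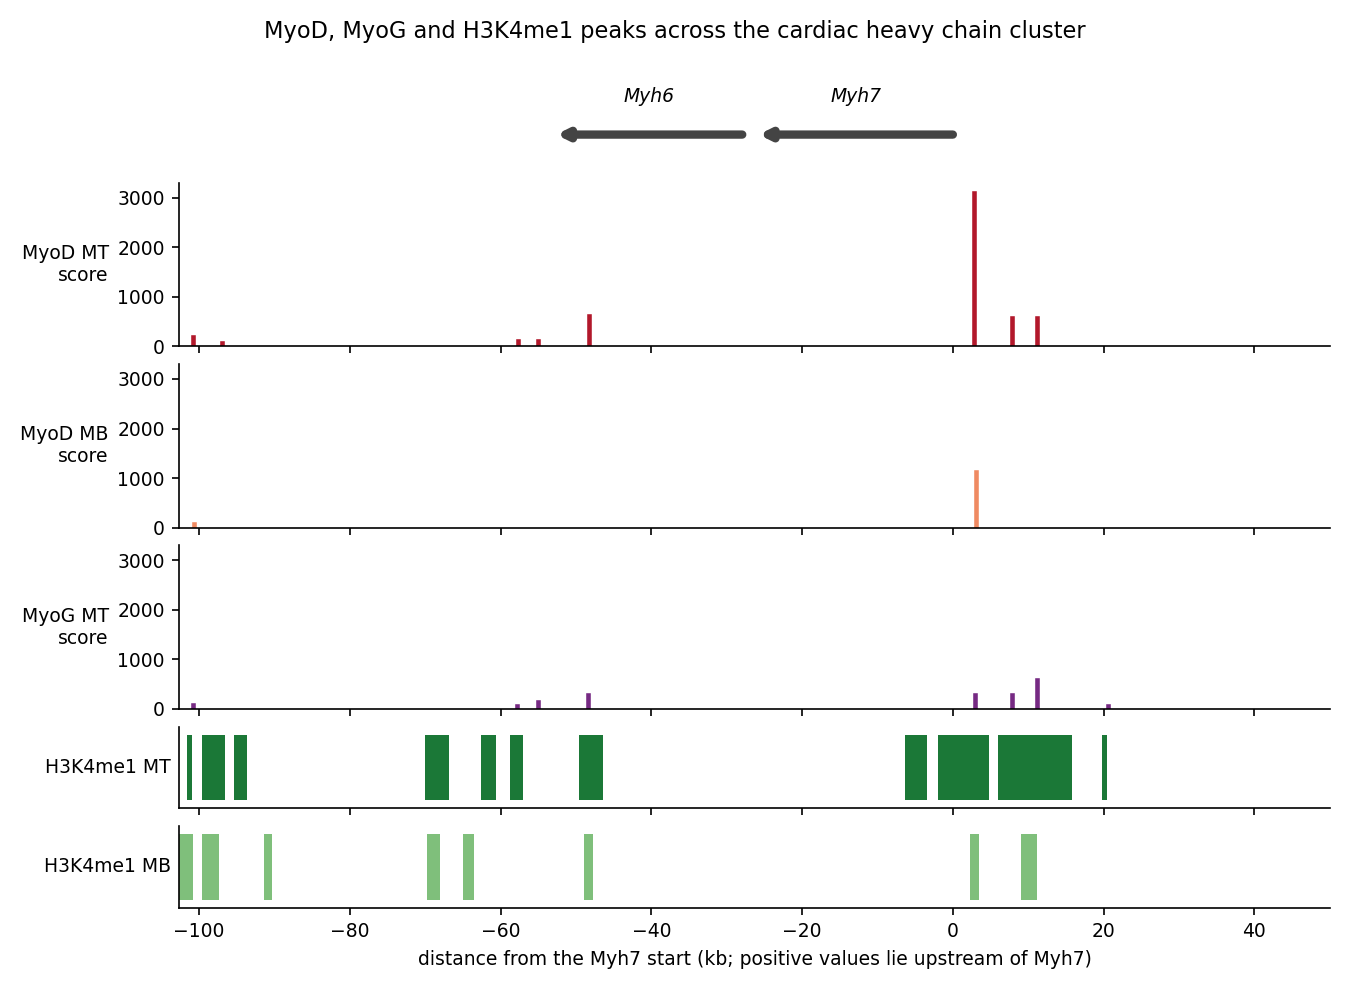
Peaks across the cardiac heavy chain cluster by distance from the Myh7 start in kb, positive values upstream, with the genes as arrows pointing the way they are transcribed. Bars give deposited scores for MyoD in myotubes (MT) and myoblasts (MB) and MyoG in myotubes, and blocks give H3K4me1 domains. The highest bars of both MyoD lists, 3100.0 in myotubes and 1127.23 in myoblasts, stand at the same place upstream of Myh7.

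Upstream of Myh7 lay the highest MyoD score of both clusters. It was 3100.0 in myotubes (chr14:55615509-55616990, centred 2.9 kb upstream; 99.2th percentile), where scores of this list run up to a ceiling from about that value. The myoblast peak there scored 1127.23 (chr14:55615937-55616886; 92.0th percentile), a MyoG peak scored 283.76 (chr14:55615965-55616726), and H3K4me1 was listed at both stages. Farther upstream a MyoD peak at chr14:55620775-55621574 (582.65) and the highest MyoG peak of the cluster, chr14:55624336-55624865 (584.7), lay in the longest domain, chr14:55619401-55629200, with 467 ChIP reads and 137 control reads (fold 3.35). Both factors were listed at both sites: a MyoG peak overlapped that MyoD peak, and a MyoD peak of myotubes overlapped that MyoG peak. The longest myoblast domains of the window had 2.2 kb, and one of the 2, chr14:55622401-55624600 (fold 2.37), lay within that domain of myotubes. The RNA of Myh7, measured earlier in differentiation, was under 1 FPKM in all 4 libraries.

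Myh6 had no peak of MyoD or MyoG within 5 kb of its start. Inside the gene a MyoD peak of myotubes, chr14:55564593-55565516 (607.08), overlapped a MyoG peak, chr14:55564684-55565398 (287.66), and H3K4me1 of both stages. Past its 3′ end, MyoD peaks at chr14:55558000-55558665 (109.38) and chr14:55555336-55555923 (102.38) overlapped MyoG peaks at chr14:55558158-55558562 (133.7) and chr14:55555434-55555803 (69.34). Both of these MyoD peaks overlapped the locus of another gene, Cmtm5. The second myoblast MyoD peak of the window, chr14:55512359-55512958 (74.61), lay 72.8 kb downstream of the Myh6 start. Its myotube counterpart, chr14:55512213-55513000, reached into the locus of Pabpn1. Both MyoD peaks of the window in myoblasts, and both on chromosome 11, overlapped one of myotubes, where 73.9% of the myoblast list did.

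**Figure D5:**
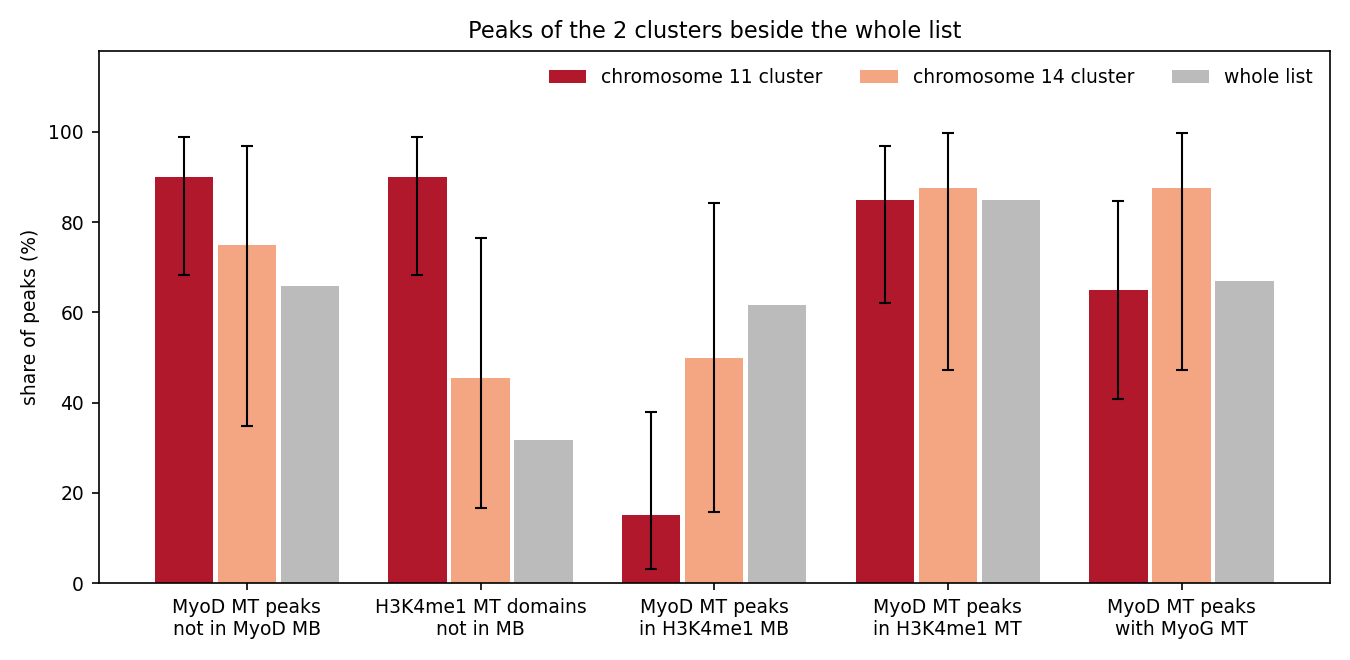
Share of peaks of the chromosome 11 cluster, the chromosome 14 cluster and the whole list in 5 comparisons of lists, in percent, with 95% Clopper-Pearson intervals for the clusters. The chromosome 11 cluster has 90.0% of myotube H3K4me1 domains without a myoblast counterpart, where the whole list has 31.7%, and 15.0% of MyoD peaks in myoblast domains, where the list has 61.6%.

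Seen from the gene starts, 2 of 8 members had a MyoD peak within 1 kb in myotubes (Myh3 and Myh1; 20.5% of 14334 starts of genes did), and 1 in myoblasts (Myh1; 7.63%). MyoG was within 1 kb of 3 starts (Myh3, Myh1 and Myh4; 15.3%). H3K4me1 was within 1 kb of 5 starts in myotubes (48.8%), against 1 in myoblasts (51.5%). With 8 genes in 2 rows these counts describe the members and carry no test.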

How the data were processed

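PolyA RNA-seq values and peak lists were used as deposited, for 9 of the 11 samples. The members and lists were chosen with earlier results of these data known.

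The authors deposited 2 tables of FPKM per coding sequence, with their own p-value and q-value, per the file headers; TopHat and mm9 are named in the submitters' processing notes. The column named for GFP was taken as the control and the other as DRRi or pHAN_DRR1.2. Peak scores are the authors' own, from MACS per the file headers, with a minimum of 60. The submitters' processing notes list SICER, and the deposited H3K4me1 lists give counts of ChIP and control reads and a fold over control per domain, on 200 bp windows. The sources used here do not give versions, the control used for MACS, the pooling of runs or read depths.

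FPKM was summed per symbol. Log2 changes used a pseudocount of 1, genes averaging at least 1 FPKM and a 2-fold threshold. With 1 library per group no test was run. Standard errors and 95% intervals of FPKM ratios were computed from the authors' p-value, taken as normal and two-sided. This was done also for genes marked as not tested, and the intervals hold no spread between cultures. Overlap needed 1 bp or more. E-box and other motifs were searched on both strands of RefSeq promoter windows (GRCm38.p6), whose starts can differ from those of the files. By the naming rule all members were named and, of the partner, other heavy chain and regulator lists, the genes past 2-fold in either table, Myod1 and Myog; other genes named were chosen after their values were seen. Named peaks were MyoD and MyoG peaks in or within 5 kb of a member, the 3 highest scores per list and cluster and the longest H3K4me1 domain of each. The MyoD peaks named just beyond 5 kb from the Myh2 start lay outside that rule and were chosen after they were seen. The code, tested on simulated data, ran in Python 3.11.15 with pandas 2.3.3 and scipy 1.17.1.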

Additional observations from a re-analysis of the deposited data

How the results depend on the processing

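The main limits are the single library per group, the scarcity of member RNA at 4 h, possible read sharing among the near-identical genes, and peak lists of unequal size. No paired analysis was possible because each group held 1 library. The members kept the signs of their changes under the alternatives run on them, save that with the median change of all genes set to 0 the log2(FPKM + 1) changes of Myh2, Myh4 and Myh13 in DRRi cells, 0.00, 0.01 and 0.01, become -0.02, -0.01 and -0.02; their FPKM ratios stay above 1.

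With a pseudocount of 0.1, 1 member was lower by 2-fold or more in DRRi cells (Myh3, if genes under 1 FPKM are counted) and 2 were higher in pHAN_DRR1.2 cells (Myh3 and Myh1). The genes counted were then 180 higher and 132 lower in DRRi cells, and 67 higher and 30 lower in pHAN_DRR1.2 cells. Among genes averaging at least 5 FPKM they were 60 and 53 in DRRi cells and 21 and 5 in pHAN_DRR1.2 cells, and 1 partner was lower in DRRi cells. With the most abundant coding sequence alone, 29 genes were lower in pHAN_DRR1.2 cells.

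With flanks of 10 kb the chromosome 14 window held 5 MyoD peaks in myotubes, against 1 in myoblasts, 5 MyoG peaks, and 6 H3K4me1 domains in myotubes (3 of them new), against 3 in myoblasts (3 kept). The single MyoD peak of myoblasts was kept (1). The chromosome 11 window then held 3 domains of myoblasts. With flanks of 100 kb the chromosome 14 window held 14 MyoD peaks in myotubes (10 new), against 4 in myoblasts (4 kept), and 21 domains in myotubes (9 new), against 16 in myoblasts (12 kept). The chromosome 11 window held 4 MyoD peaks and 8 domains of myoblasts (6 kept).

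With peaks at or above the list median only, chromosome 11 held 11 MyoD peaks in myotubes (10 new), against 1 in myoblasts (1 kept), and 7 domains in myotubes (7 new), against 2 in myoblasts (0 kept). Chromosome 14 held 5 MyoD peaks in myotubes, against 1 in myoblasts (1 kept), 4 MyoG peaks and 7 domains in myotubes (3 new). An overlap of at least 50% of the shorter peak left all these counts within 1.5 times the main ones.

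The 5 genes nearest to Myh3 in pattern shared 0 genes with the 5 found on FPKM ratios. A start was also called occupied by a peak within 5 kb or by a peak that covered it, settings chosen after seeing the data. Within 5 kb, 2 members had a MyoD peak in myoblasts and 2 an H3K4me1 domain in myoblasts. A peak covered the deposited start of 1 member for MyoD in myotubes, 0 for MyoD in myoblasts, 0 for MyoG and 0 for H3K4me1 in myoblasts.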

Other observations

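The tables held 9 other genes within the windows. On chromosome 11 Tmem220 had 0.0905 FPKM in DRRi cells, against 0.302 FPKM in GFPi cells, and 0.810 FPKM in pHAN_DRR1.2 cells, against 0.732 FPKM in pHAN_GFP cells, the directions of Myh3 at levels under 1 FPKM. Sco1, a cytochrome oxidase assembly factor, had 4.94 FPKM in DRRi cells, against 3.77 FPKM in GFPi cells, and 4.29 FPKM in pHAN_DRR1.2 cells, against 4.16 FPKM in pHAN_GFP cells. On chromosome 14 Pabpn1, a nuclear poly(A)-binding protein, had 70.0 FPKM in DRRi cells, against 59.1 FPKM in GFPi cells, and 51.3 FPKM in pHAN_DRR1.2 cells, against 49.1 FPKM in pHAN_GFP cells. These genes were chosen after their values were seen.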
